A study of Mus musculus with 8 samples.

Results

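On mouse chromosome 9 the gene for interleukin 18 (Il18) lies among genes of unrelated function, and 44 of these neighbours are described here. They were taken from a list of genes placed around Il18, and their probes were found through the transcript accession that the array gives for each probe. Of the 44 genes, 40 had at least 1 named probe and 4 (Cep164, Layn, Ddx10 and Npat) had none, which compares with 16309 genes named on the whole array. The 40 genes had 65 probes. A probe was tested if the scanner software marked it as well above background on at least 4 of the 8 arrays. By that filter 62 of the 65 probes, from all 40 genes, were tested, among 26263 probes of the array. The 3 others were the dimmer probe of Ttc12 and the 2 dimmer probes of Ncam1. In the gene order of the chromosome, 29 of the 44 genes lie before Il18, from Trappc4 to Bco2, and 15 after it, from Sdhd to Cul5.

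Genes that lie close together on a chromosome are inherited together. When a knockout is made in stem cells of one strain and crossed into another, a stretch around the targeted gene can stay that of the stem cells, and its genes are then called passengers. An array probe is a short piece of 1 transcript, so probes placed at different points of the same transcript give separate readings of it. The comparison of all probes of a gene therefore asked whether a difference was seen by each of them or by 1 alone.

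RNA came from the mucosa of the middle colon (2.5 to 3.5 cm from the ileocecum) and of the rectum (7 mm from the anus) of wild-type mice (WT) and Il18 knockout mice (IL18ko). Brothers were kept together until 10 to 12 weeks of age, after which control mice stayed in company and stressed mice were housed alone. The labels give the isolation as 8 days in one place and 16 days in another. Equal amounts of RNA from 5 mice were mixed for every group, and 1 array was run per mixture, which gave 8 arrays without replicates. The labels name neither the strain of the mice nor the crosses of the IL18ko line, and whether strain differs along the stretch was not tested. IL18ko and WT arrays were compared in 4 matched pairs of the same tissue and housing. Whether a mouse gave RNA to both its colon and its rectum pool is not said in the labels. If so, the 4 pairs are not independent, and the p-values below are too small.

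All colon arrays lay on 1 slide and all rectum arrays on the other, so slide and tissue cannot be told apart. The place on the slide went with genotype and housing, and these cannot be told apart either. Between 62.2% and 66.4% of 43379 spots per array lay well above background. Il18 was well above background on 4 of 4 WT and 0 of 4 IL18ko arrays, and at least 1210-fold higher in WT. The stressed rectum pair stood apart: over all tested probes its IL18ko minus WT difference lay a median of 0.46 log2 units from the mean of the other 3 pairs, against 0.17 to 0.31 for each of those. Levels below are log2 intensities after subtraction of the array's own 75th percentile, each difference is IL18ko minus WT unless stated, and ± gives the standard error (SE) from limma over 4 pairs. Probes of a gene are numbered by brightness, probe 1 being the brightest, and their levels are not set against each other. In tissue samples, fewer cells of a type and less RNA per cell cannot be told apart.

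Some neighbours share the stretch in which their transcription starts. The stretches between 3 such pairs of start sites are printed because 5 of these 6 genes were measured and 2 of the pairs held a gene that was called below. They were read from RefSeq promoter windows on build GRCm38.p6, plus strand, and 34 of the 44 genes were found in that table. Capitals mark CCAAT and GGGCGG, searched on both strands, as was TATAAA.
Trappc4 and Rps25 (chr9:44407549-44407713): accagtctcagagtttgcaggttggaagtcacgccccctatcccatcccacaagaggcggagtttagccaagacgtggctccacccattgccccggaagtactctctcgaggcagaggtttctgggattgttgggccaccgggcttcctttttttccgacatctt
Sdhd and Timm8b (chr9:50603850-50603900): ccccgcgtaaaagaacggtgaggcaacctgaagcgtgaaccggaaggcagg
Atm and Npat (chr9:53536829-53536888): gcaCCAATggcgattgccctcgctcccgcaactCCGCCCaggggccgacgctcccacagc

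The stretch between Trappc4 and Rps25 held none of the 3 motifs in its 165 bases. Among all promoter windows read at that length, 26.1% held CCAAT, 29.5% GGGCGG and 8.2% TATAAA. The 51 bases between Sdhd and Timm8b also held none, where 8.8%, 16.4% and 3.5% of windows did. The 60 bases between Atm and Npat held 1 CCAAT and 1 GGGCGG, found in 10.8% and 18.6% of windows of that length. Their GC content was 71.7%, against a median of 55.0% over all such windows. A match is a run of letters and says nothing of binding.

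In the comparison of IL18ko with WT, 4 of the 62 probes passed the test (limma, Benjamini-Hochberg adjusted p under 0.05 over 26263 probes), all lower in IL18ko. They were probe 2 of Ift46, probe 2 of Pcsk7, probe 2 of Rps25 and the single probe of Atm. Probe 2 of Ift46 entered the test only through its WT arrays. With a filter of 8 of 8 arrays, 3 of 59 probes passed, against 0.0297% of all tested. With the filter of 4 of 8 arrays, 13 probes passed over the whole array, 0.0495% of those tested. Of these, 8 (0.0305%) were lower and 5 (0.019%) higher in IL18ko. Of the 13 probes, 10 were named, and 8 of those lay between the outermost genes described here, Il18 among them. Of the 50 tested probes of other genes in that stretch 3 passed. On the rest of chromosome 9, 0 of 951 passed in limma. There 167 (17.6%) had an unadjusted p under 0.05, against 16.3% of all tested probes. The stretch is bounded by genes chosen with earlier results of these data known, so its counts are no test of place.

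The counts depended on single pairs. Without the stressed rectum pair 27 of the 62 probes and 2466 of all probes passed. Without the control colon pair 0 of 62 passed, without the control rectum pair only Ift46 probe 2, and without the stressed colon pair Ift46 probe 2, Pcsk7 probe 2 and Rps25 probe 2. All 4 of these probes passed in the colon pairs alone and in the rectum pairs alone, which are also the values within each slide. Those fits took their variance mostly (colon) or wholly (rectum) from the trend over all probes. They are therefore not separate replications of the calls.

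**Figure D1:**
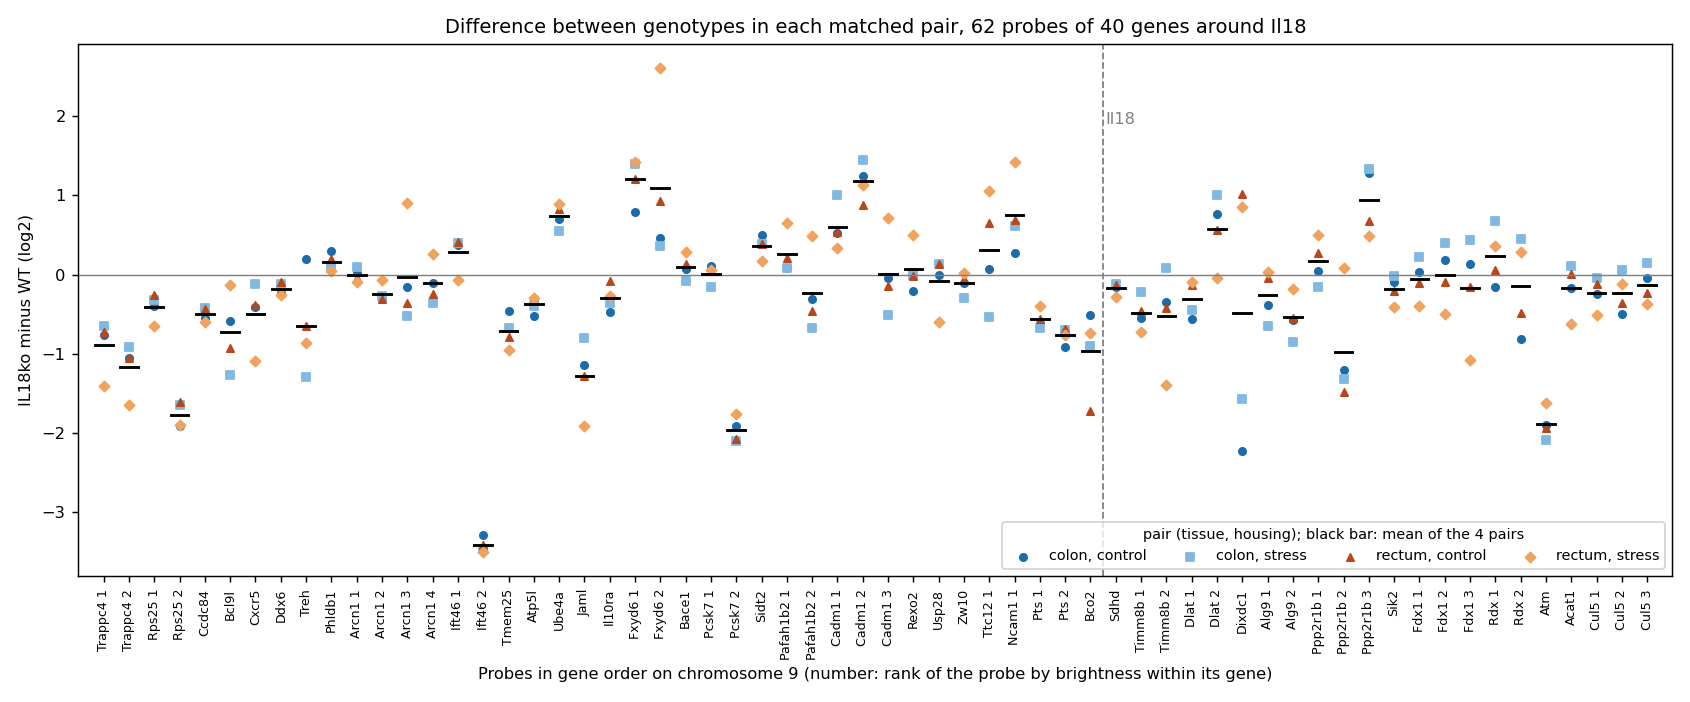
IL18ko minus WT difference (log2) of the 62 tested probes in the 4 matched pairs, with genes in chromosome order and Il18 marked by a line. Symbols and colours separate the pairs and a black bar gives their mean. The probes that passed the test lie between -3.51 and -1.61 in every pair.

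Ift46 encodes a subunit of the intraflagellar transport complex B, which carries cargo into cilia. Its probe 2 was at -3.13 in control and -3.58 in stressed WT colon, and at -6.42 and -7.05 in IL18ko colon. In rectum it was at -3.65 and -3.56 in WT, and at -7.06 on both IL18ko arrays. The probe was well above background on 4 of 4 WT and 0 of 4 IL18ko arrays, without overlap. Its difference was -3.42 ± 0.18 (limma adjusted p = 0.003006), and the pairs lay between -3.51 and -3.29. It was tested only because it was above background on the WT arrays, so its call is a matter of the filter as well. Its SE and p rest on IL18ko values below background. Since the IL18ko arrays give only a bound, WT exceeded IL18ko at least 7.18-fold, set against the lowest signals that counted as above background. With normexp background correction the difference was -0.98 and no longer passed.

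Probe 1 of Ift46, which names the same transcript, did not fall. It was at 2.77 and 2.79 in WT colon, 3.14 and 3.19 in IL18ko colon, 2.97 and 3.41 in WT rectum, and 3.38 and 3.34 in IL18ko rectum, with control before stress. The groups overlapped, and the difference was 0.28 ± 0.12 (limma adjusted p = 0.3102). Without the stressed rectum pair it was 0.40 and passed as higher in IL18ko. The difference between both probes was itself tested, as the log2 ratio of probe 2 to probe 1, and was -3.70 ± 0.17 (limma adjusted p = 0.007128). Probe 2 was tested only because it was above background on the WT arrays, and this size too rests on IL18ko values below background. With low values set to the lowest signal above background it was -3.12, and with normexp -1.27, both still past the threshold.

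Pcsk7 encodes a proprotein convertase, an enzyme that cuts precursor proteins in the secretory pathway. Its probe 2 was at 0.66 in control and 0.92 in stressed WT colon, against -1.25 and -1.18 in IL18ko. In rectum it was at 0.56 and 0.51 in WT, against -1.52 and -1.26. All WT arrays lay above all IL18ko arrays, with a difference of -1.96 ± 0.12 (limma adjusted p = 0.004251).

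Probe 1 of Pcsk7 gave nearly the same level in both genotypes. In colon it was at 2.40 and 2.68 in WT and at 2.50 and 2.52 in IL18ko. In rectum it was at 2.22 and 2.29 in WT and at 2.26 and 2.34 in IL18ko. The groups overlapped, and the difference was 0.01 ± 0.10. Both probes name 1 transcript, and their ratio differed between genotypes by -1.97 ± 0.10 (limma adjusted p = 0.007128).

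Rps25 encodes a protein of the small ribosomal subunit. Its probe 2 was at -1.06 and -1.38 in WT colon, -2.97 and -3.03 in IL18ko colon, -1.81 and -1.87 in WT rectum, and -3.42 and -3.77 in IL18ko rectum. The groups did not overlap, and the difference was -1.77 ± 0.13 (limma adjusted p = 0.01336). Probe 1 was at 7.14 and 7.04 in WT colon, 6.74 and 6.72 in IL18ko colon, 7.22 and 7.51 in WT rectum, and 6.96 and 6.86 in IL18ko rectum. Here too every WT array lay above every IL18ko array, yet the difference of -0.40 ± 0.10 did not pass (limma adjusted p = 0.1893), though it did without the stressed rectum pair. The ratio of the probes differed by -1.37 ± 0.11 (limma adjusted p = 0.03871), which passed neither with normexp background correction (-0.87) nor with the filter of 8 of 8 arrays (-1.37). A pseudogene copy of Rps25 is annotated in the mouse genome, so the signal of either probe is uncertain as to its source.

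Atm encodes the kinase that signals DNA double-strand breaks. Its single probe was at -3.05 and -2.95 in WT colon and at -4.95 and -5.04 in IL18ko colon. In rectum it was at -2.66 and -2.94 in WT and at -4.59 and -4.55 in IL18ko. The groups did not overlap, and the difference was -1.89 ± 0.16 (limma adjusted p = 0.02353), a level 3.70-fold lower. With normexp background correction the difference was -0.93 and still passed. With 1 probe, a change of the transcript and a change seen by the probe alone cannot be told apart. Npat, which starts on the other side of the printed stretch, had no named probe.

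**Figure D2:**
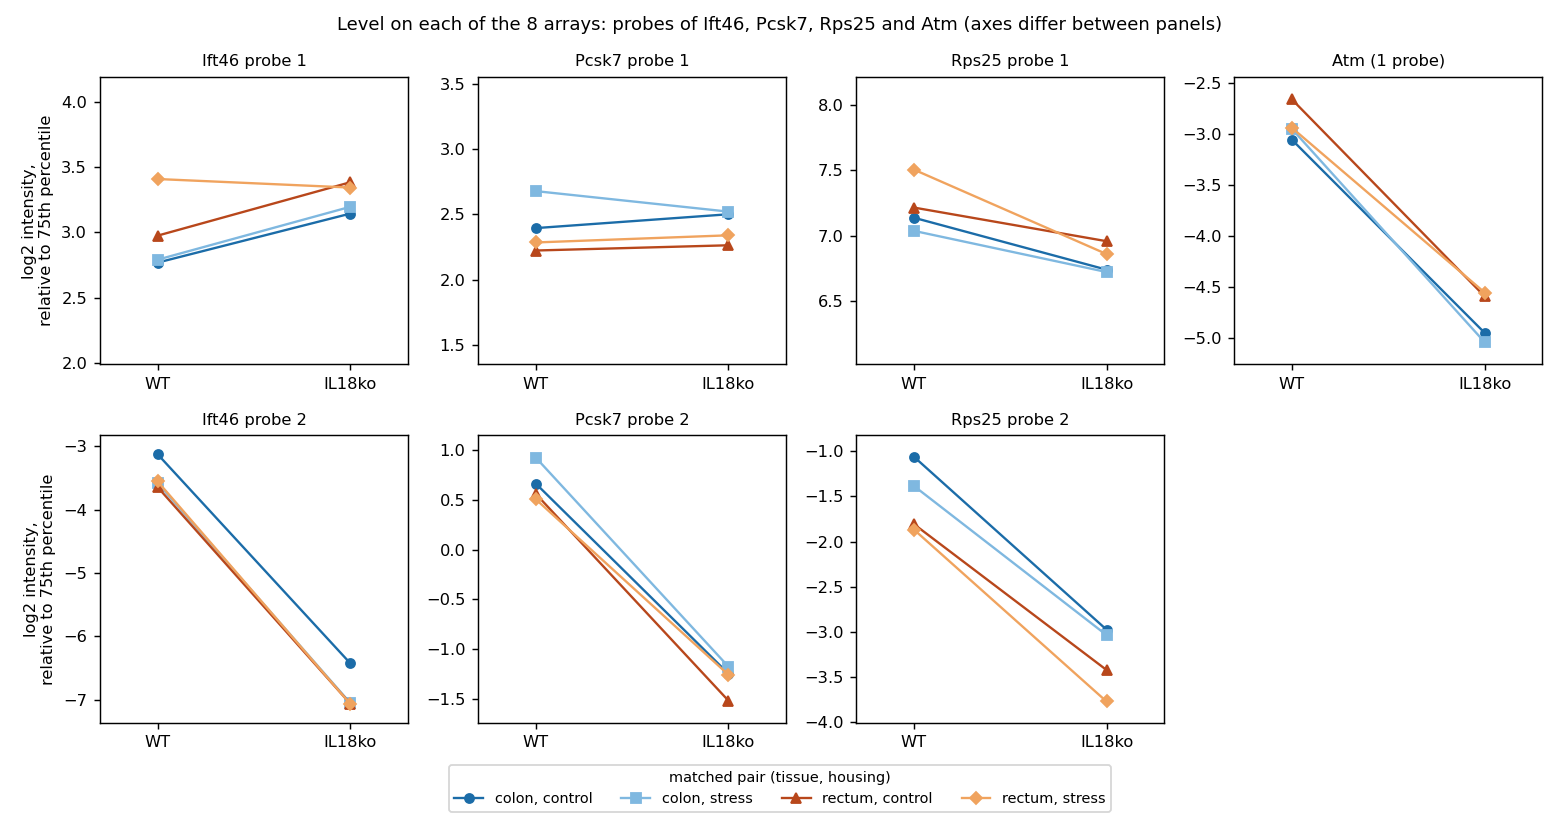
Level (log2, relative to the 75th percentile of the array) on each of the 8 arrays for the probes of Ift46, Pcsk7 and Rps25 and for the probe of Atm, with a line joining each matched pair. The dimmer probe of each of the first 3 genes is lower on all IL18ko arrays, while the brightest probes of Ift46 and Pcsk7 overlap between genotypes.

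The test of differences between probes of 1 gene covered 5163 probe pairs of 4180 genes, each further probe against the brightest. Of these, 4 passed, 0.0775%, and 3 of the 4 belonged to the 22 probe pairs of the 16 neighbours with more than 1 tested probe: Ift46, Pcsk7 and Rps25. The other called pair also lay on chromosome 9, in a gene that is not among the 44. At an unadjusted p under 0.05 the count was 10 of 22, against 3.49% over the array. The 7 further pairs (2 of Ppp2r1b and 1 each of Cadm1, Trappc4, Pafah1b2, Dlat and Alg9) all had a limma adjusted p of 0.9992. In 19 of the 22 pairs both probes named the same transcript. Leaving out 1 pair of arrays gave 0 called pairs among the 22 in 3 cases, and 6 without the stressed rectum pair (those 3 and 1 each of Dlat, Pafah1b2 and Ppp2r1b).

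The largest of the differences between probes that did not pass were those of Ppp2r1b, a scaffold subunit of protein phosphatase 2A, and of Dlat, the acetyltransferase subunit of the pyruvate dehydrogenase complex. Probe 1 of Ppp2r1b gave 0.17 ± 0.14, probe 2 -0.98 ± 0.28 and probe 3, which names another transcript, 0.95 ± 0.24. Probe 3 was not well above background on the WT colon arrays, so its size is uncertain there. Probe 1 of Dlat gave -0.31 ± 0.12 and probe 2 0.57 ± 0.18. None of these 5 differences passed on its own.

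**Figure D3:**
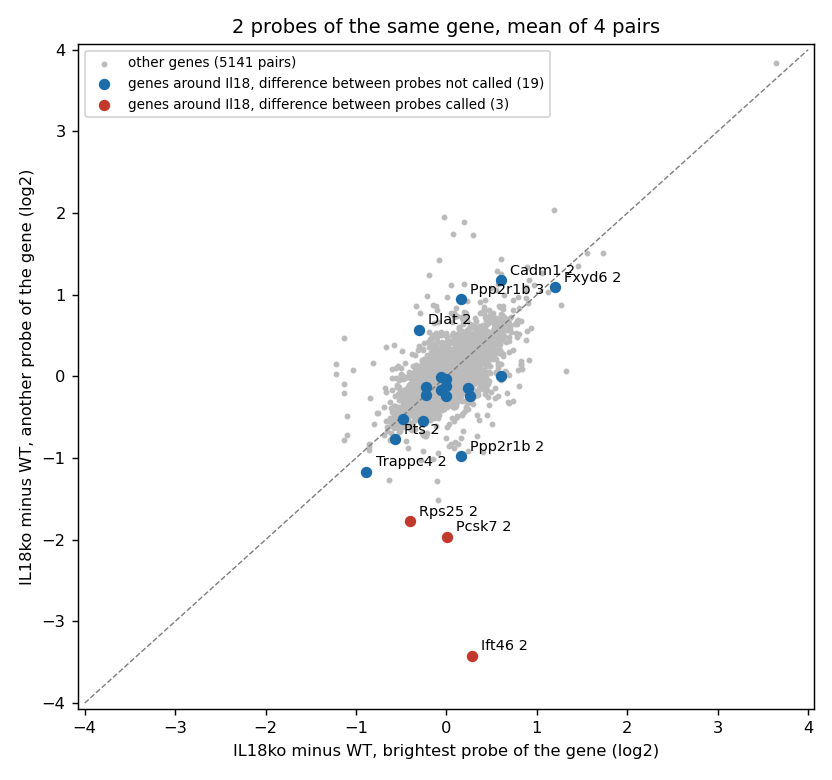
IL18ko minus WT difference (log2) of each further tested probe against that of the brightest tested probe of the same gene, with the 22 pairs of the neighbours drawn over the pairs of the whole array. Among the neighbours, the pairs of Ift46, Pcsk7 and Rps25 lie farthest below the diagonal, on which both probes would give the same value.

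By size alone, 9 of the 62 probes differed at least 2-fold with the same direction in 4 of 4 pairs, against 0.758% of all tested probes. Of these, 6 were lower in IL18ko (0.27% of all) and 3 higher (0.487% of all). Beside the 4 called probes they were probe 2 of Trappc4, the probe of Jaml, both probes of Fxyd6 and probe 2 of Cadm1. On chromosome 9 outside the stretch the share was 0.631% of 951 probes. Ift46 probe 2 was counted only through its WT arrays. With a filter of 8 of 8 arrays, 8 of 59 probes were past 2-fold, against 86 of 23554 over the array. The 5 probes that were not called did not pass the test, and their values follow.

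Trappc4, a subunit of the TRAPP complex that tethers transport vesicles, was the outermost gene on its side and is the neighbour that shares its start stretch with Rps25. Its probe 1 was at 4.50 and 4.30 in WT colon, 3.74 and 3.66 in IL18ko colon, 4.34 and 4.80 in WT rectum, and 3.61 and 3.40 in IL18ko rectum. Probe 2 was at 4.18, 3.99, 3.12, 3.08, 3.98, 4.40, 2.92 and 2.75 on the same arrays in the same order. Neither probe overlapped between genotypes, and the differences were -0.88 ± 0.15 and -1.17 ± 0.14 (limma adjusted p = 0.1893 and 0.08799). Without the stressed rectum pair both passed, and probe 2 also passed with quantile normalization, with normexp and in the deposited ratios.

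Jaml encodes an adhesion molecule of leukocytes that binds a receptor on epithelial cells. Its single probe was at -0.83 and -0.92 in WT colon, -1.97 and -1.73 in IL18ko colon, -0.95 and -0.58 in WT rectum, and -2.24 and -2.49 in IL18ko rectum. All WT arrays were above all IL18ko arrays, with a difference of -1.29 ± 0.19 (limma adjusted p = 0.1863). Of the T and NK cell markers, 8 of 9 were tested and 0 were called, with a median difference of -0.09. Of the 8, 3 (Cd3g, Cd3d and Cd3e) lie in the same stretch as Jaml, and the 5 others also had a median of -0.09. The summed level of all 8 ran from -1.48 to 0.23 on WT and from -1.43 to 0.27 on IL18ko arrays. Of the macrophage and dendritic cell markers 0 of 7 were called, with a median of 0.07 and summed levels of 1.05 to 2.68 and 1.09 to 2.28. Their median was 0.18 in colon and -0.34 in rectum, and that of the T and NK cell markers 0.01 and -0.23. Jaml gave -0.97 in colon and -1.60 in rectum, and the part of these cells in its values was not tested.

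Fxyd6 encodes a small membrane protein that regulates the sodium pump and is found in nervous tissue. Its probe 1 was at 4.18 and 4.16 in WT colon, 4.97 and 5.55 in IL18ko colon, 3.10 and 2.98 in WT rectum, and 4.30 and 4.40 in IL18ko rectum. Its probe 2 was at -0.89, -0.85, -0.43, -0.49, -1.97, -3.35, -1.03 and -0.74 in the same order. Probe 1 did not overlap between genotypes and probe 2 did, the WT colon arrays lying above the control IL18ko rectum array. The differences were 1.20 ± 0.13 and 1.09 ± 0.36 (limma adjusted p = 0.06422 and 0.2321). The difference of probe 2 came in large part from the stressed rectum pair, at 2.61.

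Cadm1 encodes a cell adhesion molecule of epithelia, mast cells and synapses. Its probe 1 was at -1.03 and -1.11 in WT colon, -0.51 and -0.11 in IL18ko colon, -1.51 and -1.31 in WT rectum, and -0.97 and -0.98 in IL18ko rectum. Its probe 2 was at -1.49 and -1.29, -0.24 and 0.15, -1.63 and -1.71, and -0.75 and -0.58. For both probes every IL18ko array was above every WT array, with differences of 0.60 ± 0.14 and 1.18 ± 0.13 (limma adjusted p = 0.1893 and 0.06422). Without the stressed rectum pair these probes, those of Fxyd6 and the probe of Jaml passed. With normexp, probe 2 of Cadm1 and probe 1 of Fxyd6 passed.

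Probe 3 of Cadm1 was at -3.99 and -3.70 in WT colon, -4.04 and -4.21 in IL18ko colon, -3.97 and -4.57 in WT rectum, and -4.11 and -3.86 in IL18ko rectum. Its groups overlapped, with a difference of 0.00 ± 0.23, and it names the same transcript as probe 2, while probe 1 names another. The difference between probes 2 and 3 was not tested.

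Ncam1, the neural cell adhesion molecule, was higher on the IL18ko array in 4 of 4 pairs at its only tested probe, by 0.75 ± 0.20 (limma adjusted p = 0.1986). Markers of enteric neurons and glia lay beside Fxyd6, Cadm1 and Ncam1: 6 of 9 were tested and 0 called, with a median difference of 0.43. Their summed level ran from 2.03 to 3.99 on WT and from 2.65 to 4.15 on IL18ko arrays. Smooth muscle markers had a median of 0.48 with 0 of 7 called (0.53 without Tagln, which lies in the stretch), adipocyte markers 1.38 with 0 of 6, and skeletal muscle markers 0.96 with 0 of 9. In skeletal muscle markers the median was -1.15 in colon and 2.92 in rectum. Epithelial markers had a median of 0.10 with 0 of 11 called, and fibroblast markers 0.32 with 0 of 6. The part of these cells in the 3 genes' values was not tested.

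**Figure D4:**
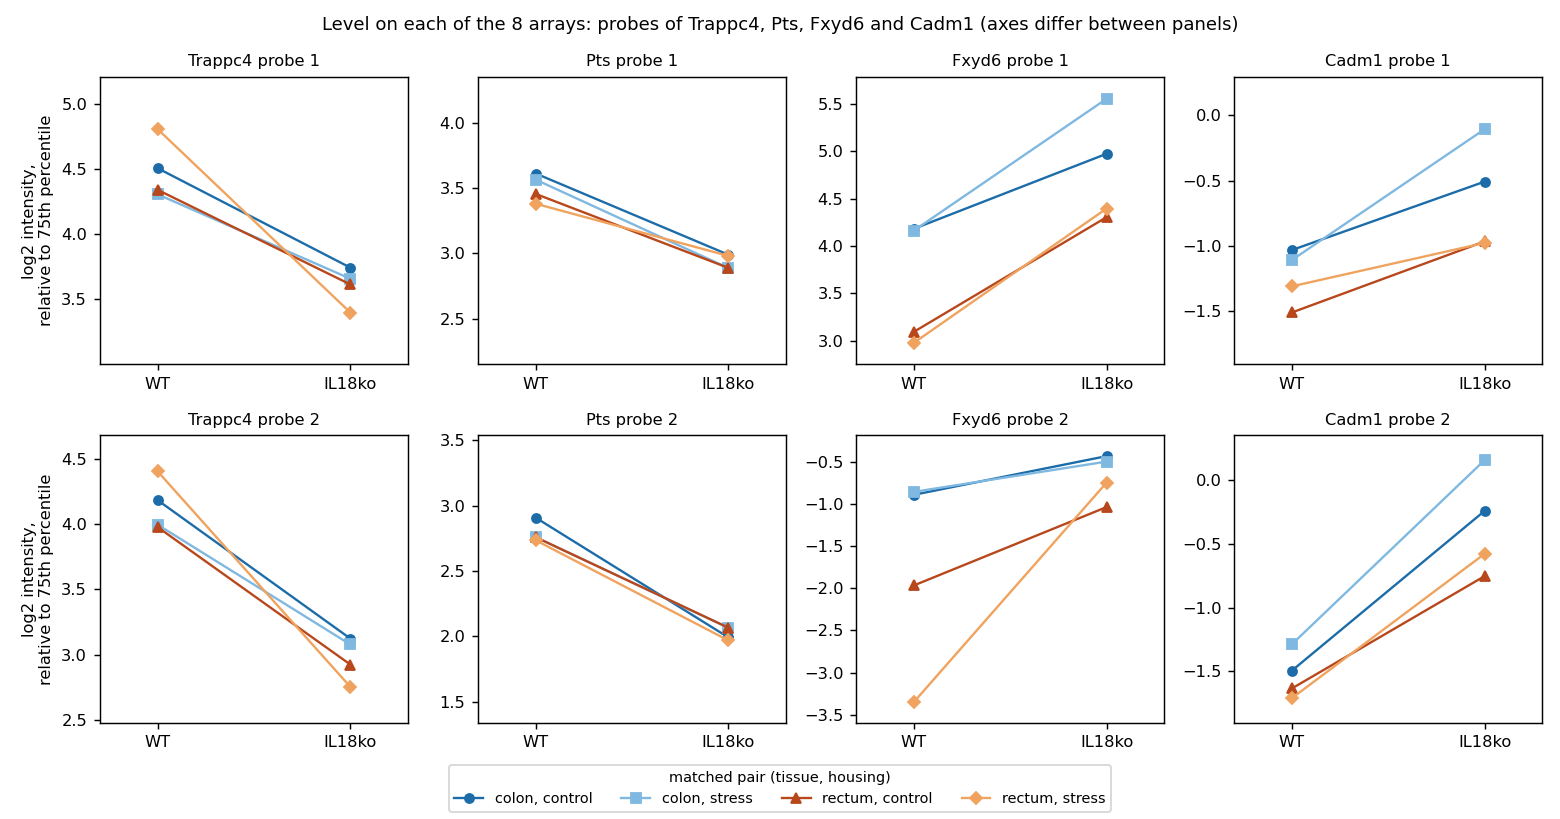
Level (log2, relative to the 75th percentile of the array) on each of the 8 arrays for probes 1 and 2 of Trappc4, Pts, Fxyd6 and Cadm1, with a line joining each matched pair. The probes of Trappc4 and Pts are lower on all IL18ko arrays, and those of Cadm1 and probe 1 of Fxyd6 are higher.

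Small differences in 1 direction were common. The same direction in 4 of 4 pairs was seen for 35 of the 62 probes, 25 lower and 10 higher in IL18ko, where over the array it was 26.4% of probes (13.7% lower, 12.7% higher). Of the 62, 24 had levels that did not overlap between WT and IL18ko arrays (19 with WT higher and 5 with IL18ko higher), against 8.05% of all tested probes (4.76% and 3.3%). At an unadjusted p under 0.05 the count was 29 of 62, against 16.3%. The median size of the difference was 0.33 over the 62 probes, 0.18 over all tested probes and 0.17 on chromosome 9 outside the stretch. The spread between pairs was no larger than elsewhere, with a median SD of 0.27 against 0.32 over the array. The 62 probes were brighter, with a median level of -0.30 against -1.12 over all tested probes. None of these comparisons was matched for level.

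**Figure D5:**
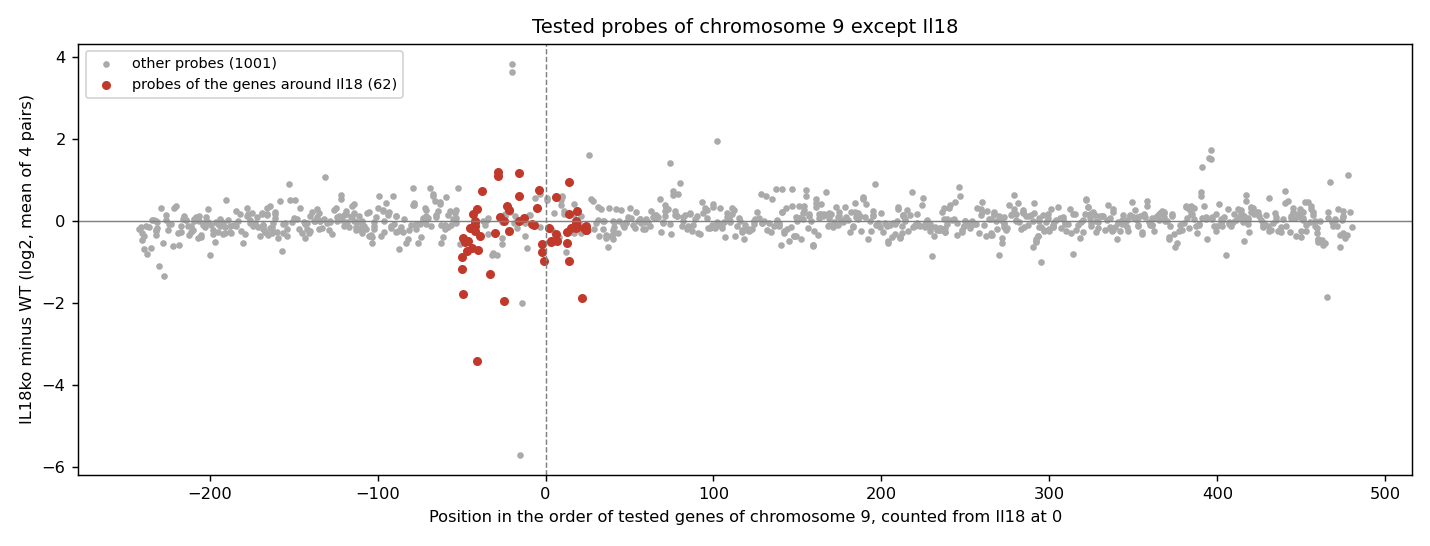
IL18ko minus WT difference (log2) of the 1063 tested probes of chromosome 9 other than Il18, against the place of the gene in the order of tested genes counted from Il18. The 62 probes of the neighbours are drawn over 1001 others, and 9 of the 62 lie beyond 1 in size with 1 direction in 4 of 4 pairs.

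The order on the chromosome was followed with the brightest probe of each gene. Among the 20 tested genes within 10 places of Il18, 10 had the same direction in 4 of 4 pairs, and among those within 25, 50 and 100 places the share was 52%, 48% and 38%. Among the tested genes farther away or on other chromosomes it was 27.6%. Before Il18, 18 of 40 probes were lower and 9 higher in IL18ko in 4 of 4 pairs. After Il18, 7 of 22 were lower and 1, probe 3 of Ppp2r1b, was higher.

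Of the 16 neighbours with several tested probes, 4 had all of them in the same direction in 4 of 4 pairs: Trappc4, Rps25 and Pts lower, and Fxyd6 higher. The share of such genes over the array is not given here, so this count stands without a comparison. Pts makes a precursor of tetrahydrobiopterin, the cofactor of aromatic amino acid hydroxylases. Its probe 1 gave -0.57 ± 0.10 and its probe 2 -0.77 ± 0.10 (limma adjusted p = 0.1893 and 0.1151), with no overlap between genotypes for either, and both passed without the stressed rectum pair. Of the 24 genes with 1 tested probe, 12 were lower and 4 higher in 4 of 4 pairs, and Atm alone passed. Over all tested probes, with 1 or several per gene, 13.7% were lower and 12.7% higher in 4 of 4 pairs.

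Several of the genes encode mitochondrial proteins, and beside Dlat, given above, none of the following passed. Sdhd, the membrane anchor of succinate dehydrogenase, gave -0.17 ± 0.09. Timm8b, a chaperone of mitochondrial protein import that shares the printed stretch with Sdhd, gave -0.49 ± 0.11 and -0.52 ± 0.22, and Atp5l, a subunit of ATP synthase, -0.38 ± 0.09. Fdx1, an electron carrier for steroid synthesis, gave -0.06, -0.004 and -0.17 over 3 probes. Acat1, which makes and breaks acetoacetyl-CoA, gave -0.17 ± 0.14, and Rexo2, an exonuclease of short RNAs, 0.07 ± 0.14.

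Of the receptors of immune cells, Cxcr5, which binds CXCL13 on B cells, gave -0.50 ± 0.21 and Il10ra, a chain of the interleukin 10 receptor, -0.30 ± 0.15. Both were lower in 4 of 4 pairs and neither passed. Of the B cell markers 4 of 8 were tested and 0 called, with a median of -0.13 that joined 0.61 in colon and -0.74 in rectum. Cxcr5 itself gave -0.26 in colon and -0.74 in rectum. The summed marker level ran from -2.07 to 0.20 on WT and from -1.67 to -0.90 on IL18ko arrays, and its part in the values of Cxcr5 was not tested.

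Genes of transport and secretion showed both directions. Arcn1, the delta subunit of the coatomer, lay between -0.24 and -0.01 over 4 probes. Sidt2, a lysosomal membrane protein, gave 0.36 ± 0.10 and was higher in 4 of 4 pairs. Bace1, the beta-secretase, gave 0.10 ± 0.11, and Alg9, a mannosyltransferase of the endoplasmic reticulum, gave -0.26 ± 0.14 and -0.54 ± 0.13.

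Among genes of Wnt signalling, ubiquitin and the cell cycle, Bcl9l, a coactivator of beta-catenin, gave -0.73 ± 0.20 and was lower in 4 of 4 pairs. Ube4a, a ubiquitin ligase, gave 0.74 ± 0.15 and was higher in 4 of 4. Cul5, a scaffold of ubiquitin ligases, lay between -0.23 and -0.13 over 3 probes, and the deubiquitinase Usp28 gave -0.08 ± 0.15. Zw10, a protein of the kinetochore, gave -0.11 ± 0.11.

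The remaining genes were also not called. Bco2, which cleaves carotenoids, gave -0.97 ± 0.22, Tmem25 -0.71 ± 0.14 and Ccdc84 -0.50 ± 0.11, all lower in 4 of 4 pairs. The RNA helicase Ddx6 and the kinase Sik2 gave -0.18 ± 0.11 and -0.18 ± 0.20, likewise lower in 4 of 4, and Phldb1 gave 0.16 ± 0.10, higher in 4 of 4. Treh, the trehalase of the brush border, was well above background in rectum alone, where its difference was -0.65 in the control and -0.86 in the stressed pair. Pafah1b2, a subunit of an enzyme that inactivates platelet-activating factor, gave 0.26 and -0.24 over 2 probes, the cytoskeletal linker Rdx 0.23 and -0.14, and Ttc12 0.31 ± 0.28.

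Genes outside the stretch linked to the encoded proteins were counted too, some of them elsewhere on chromosome 9 (Mre11a, Tyk2, Zwilch and Copb2). They are called partners for short, but include related proteins and genes of the same pathway beside subunits of the same complex. Of 90 genes in 14 lists of such partners, 83 were tested. In limma 0 were called, against 0.0495% of all tested probes. Their differences lay between -0.61 and 0.48, with a median of -0.09. Of the 83, 34 kept 1 direction throughout the 4 pairs, where over the array it was 26.4% of probes. The 10 partners of Ift46 in complex B had a median of -0.17, and the 7 partners of Trappc4 a median of -0.17. The 4 genes listed with Timm8b for mitochondrial import, not all of them subunits of 1 complex with it, had a median of -0.37. All 4 were lower in 4 of 4 pairs. No partner was past 2-fold.

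Between rectum and colon, 15 of the 62 probes passed, 8 higher and 7 lower in rectum. Over the array 27.5% of probes passed (14% higher, 13.5% lower), so the share of 24.2% lay near that of all genes. Treh was well above background on 0 of 4 colon and 4 of 4 rectum arrays, and was at least 4.57-fold higher in rectum (limma adjusted p = 0.000161). It was tested only because it was above background in rectum, so its call is a matter of the filter as well. Both probes of Rdx, radixin, rose in rectum, by 2.10 ± 0.12 and 2.00 ± 0.16. Cxcr5, Bco2 and Usp28 rose by 1.24 ± 0.20, 1.20 ± 0.22 and 0.998 ± 0.139, and Phldb1 and Il10ra by 0.54 ± 0.09 and 0.50 ± 0.14. B cell markers had a median of 1.13 between rectum and colon.

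Lower in rectum were probe 1 of Fxyd6, which fell by 1.02 ± 0.12, both probes of Alg9, by 0.99 ± 0.14 and 0.57 ± 0.13, and Ncam1, by 0.89 ± 0.19. Probe 2 of Rps25 fell by 0.60 ± 0.12, while its brighter probe 1 went the other way, by 0.23 ± 0.10, and did not pass. Probes 1 and 2 of Cadm1 fell by 0.50 ± 0.14 and 0.45 ± 0.13. Markers of enteric neurons and glia had a median of -1.13 between rectum and colon, and their part in the values of Fxyd6, Ncam1 and Cadm1 was not tested.

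Between isolated and control mice, 0 of the 62 probes passed in limma, and 0 had an unadjusted p under 0.05, where over the array 0 of 26263 passed (0%) and 3.86% had such a p. Differences ran from -0.32 to 0.26. Of the 62, 8 had the same direction in 4 of 4 comparisons, 12.9% against 14.2% of all probes.

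Whether the genotype difference depended on tissue was tested as an interaction. Of the 62 probes 0 passed in limma, and 4 (of Dixdc1, Fxyd6, Ttc12 and Fdx1) had an unadjusted p under 0.05, where over the array 0% passed and 2.86% had such a p. Opposite directions in both colon pairs and both rectum pairs were seen for 5 of 62 probes, 8.06% against 7.02% of all. These were the 3 probes of Fdx1, probe 1 of Arcn1 and the probe of Dixdc1, a protein of the Wnt pathway. Dixdc1 was at 0.94 and 0.70 in WT colon, -1.29 and -0.87 in IL18ko colon, -2.50 and -2.31 in WT rectum, and -1.48 and -1.45 in IL18ko rectum. It was lower in IL18ko in both colon pairs and higher in both rectum pairs.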

How the data were processed

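The authors deposited, for each of 8 Agilent whole mouse genome arrays (1 colour), a scanner file with an intensity per spot on a linear scale, background-corrected by Feature Extraction 9.5.1.1 per the file headers, and a value table. In that table the authors gave each feature as a linear ratio over the control WT colon array, per the labels, and its log2 values correlated at 0.9949 or more with those from the scanner files. Its scaling is not given in the sources used here.

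Outlier and control spots were removed and log2 intensities averaged per probe, relative to each array's 75th percentile. Probes were named through their RefSeq accession (22857 of 40963). The array was designed on an older build, so its coordinates were not used. Tests used limma 3.58.1 in R 4.3.3 (lmFit, eBayes with trend) with tissue and housing as a pair block (3 residual degrees of freedom) and Benjamini-Hochberg adjustment over 26263 probes. Probe differences within a gene used the log2 ratio to the brightest probe in the same design. Tissue, stress and interaction were tested in the same way. The fits were checked on simulated data.

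The 44 genes, the lists of markers and partners and the tests were chosen with earlier results of these data known. Array values are given for probes called or past 2-fold and all probes of those genes; other genes are given by their differences, and Dixdc1 was added after its values were seen. A summed marker level is the log2 of the summed linear levels of the tested markers. Alternatives were other normalizations, background corrections, filters, variance models and designs, the deposited ratios, and leaving out each pair.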

Additional observations from a re-analysis of the deposited data

Results flagged for a closer look

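The probe of Dixdc1 differed between tissues in its genotype difference. IL18ko minus WT was -2.23 and -1.57 (log2) in the control and stressed colon pairs, and 1.02 and 0.86 in the rectum pairs. The difference between tissues was 2.83 ± 0.32 (SE, limma), with an unadjusted p of 4.565e-05 and an adjusted p of 0.2997 over 26263 probes, so it did not pass. It was singled out because both colon pairs lay on one side of 0 and both rectum pairs on the other, at least 1 log2 unit apart. The genotype difference of this probe passed in the colon pairs alone and on tissue means, fits whose variance came mostly from other probes. Slide and tissue cannot be told apart here.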

How the results depend on the processing

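The 4 called probes kept their direction under every alternative that could give them a value, and passed under quantile normalization, median centring, a floor for low values, and a variance without trend or robust. Ift46 probe 2 was lost with normexp (limma adjusted p = 0.07733) and, as all 4 were, without the control colon pair. In the settings other than normexp its limma adjusted p ran from 8.962e-13 to 0.05548. Ift46 probe 2 was left out by a filter of 8 of 8 arrays, and neither it nor Atm had a value in the deposited ratios. The count of all called probes (13) was 7 with that filter, 32 without the pair block, 3067 on tissue means, 51 in colon pairs and 319 in rectum pairs alone; the neighbours' count (4) was 8 without the block, 29 on tissue means, 8 in colon and 9 in rectum. The fit on tissue means has 1 residual degree of freedom, as have the fits on colon pairs or rectum pairs alone. Leaving out 1 matched pair gave 3 to 2466 called probes, 0 to 27 of the neighbours, and 0 to 55 called probe pairs (0 to 6 of the neighbours). The count past 2-fold (199) was 31 with normexp, 51 with the deposited ratios, 86 with a filter of 8 of 8 and 471 with 1 of 8 arrays, 359 in colon, 781 in rectum, and 214 to 391 when 1 pair was left out. With the filter of 8 of 8 arrays, 2 probe pairs were called, 1 of them of a neighbour.

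Differences near 0 changed sign. Cadm1 probe 3 was at -0.057 with quantile normalization, -0.072 with median centring, -0.12 with normexp and -0.28 in colon pairs alone. Pcsk7 probe 1 was at -0.063 with median centring and -0.026 in colon pairs alone. With 1 pair left out Cadm1 probe 3 lay between -0.23 and 0.17, and Pcsk7 probe 1 between -0.021 and 0.067. The cause of these shifts was not tested. No paired analysis was possible by replicate number because each group has 1 array; the pair block is that of tissue and housing. With 1 array per group, only 8 arrays and a mouse pool behind each, the number of arrays limits the precision. The p-values and SE join a probe's own spread between 4 pairs with a variance trend over all tested probes (3 residual and 3.8 prior degrees of freedom).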
